A study of Mus musculus with 7 samples.

Results

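The Hedgehog pathway genes described here are Ptch1, Smo, Gli1, Gli2, Gli3, Hhip, Boc, Cdon and Gas1, 9 of the 26607 genes listed in the data. They were picked by symbol, and selected on the EPS and control values of these same libraries being known, so their differences between groups are given as a description. No p-value is given for them, and where they are set against the cutoffs used for all genes, that too describes the values that chose them. The cells were C2C12, an established mouse myoblast line, differentiated into myotubes. Control cultures (n = 3, replicates 1, 3 and 4) had no treatment, and EPS cultures (n = 4, replicates 1 to 4) received electrical pulse stimulation at 1 Hz, starting 3 days after differentiation, for 24 h with 1 h of rest. The comparison asks how a contraction stimulus alters the transcriptome of myotubes that have no nerve, vessel or other organ around them. C2C12 is a single line, and whether the libraries came from separate cultures is not stated, so the p-values measure only the spread between these libraries, which may be technical.

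Hedgehog ligands bind the membrane protein PTCH1, which otherwise holds the transducer SMO inactive. Once SMO is released, GLI proteins reach the nucleus in their activator form, whereas without ligand GLI3 in particular is processed to a repressor. CDON, BOC and GAS1 bind ligand together with PTCH1 as co-receptors, and CDON and BOC also promote myoblast differentiation through cell adhesion. Ptch1, Gli1 and Hhip are transcribed in response to the pathway in many tissues, and PTCH1 and HHIP restrain it in turn.

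The libraries held 16616917 to 22120641 reads on listed genes, recovered from the deposited CPM, which scale the reads of a gene to the same total in each library. A count of 0 allows up to 3 reads, which is 0.136 to 0.181 CPM and covers counting error only. Control replicate 4 stood apart, with 359 genes at 1 to 5 reads where the other libraries had 2670 to 3181. The 8 myotube markers all exceeded 3 reads, with summed levels of 17350 to 20520 CPM in the control and 11800 to 18480 CPM in the EPS group. Their groups overlapped in each case, and 7 of the 8 had a lower mean under EPS (median -0.37 on the log2 scale). With 2 other scalings of the libraries this median was -0.48 and -0.18. The myogenic factor Myog was at 473, 565 and 1794 CPM for control libraries 1, 3 and 4 and at 278 to 605 CPM under EPS. The 8 markers of undifferentiated or dividing myoblasts summed to 313 to 367 CPM in the control and 375 to 1022 CPM in the EPS group, and these ranges did not overlap. Within that list the cycling genes Mki67, Top2a, Ccnb1 and Ccna2 had higher means in the EPS group, with ratios of 1.94 to 2.72. Their groups overlapped, as did those of Myf5, Pax7 and Id3. Id1 was the gene of the list whose groups separated, and it was lower under EPS, a pattern of 2.85% of all genes tested. In limma 6 of these 8 markers had an unadjusted P under 0.05, 4 with positive and 2 with negative values, against 11.6% of all genes. An adjusted p under 0.05 was reached by 0 of the 8 in limma, 2 in edgeR and 2 in DESeq2. Among the 8 myotube markers these counts were 0, 0 and 1. Over all genes with an adjusted p the shares in limma, edgeR and DESeq2 were 0.141%, 1.51% and 3.39%. The 5 fibroblast markers summed to 143 to 240 CPM and 170 to 354 CPM. Of these, Ly6a (65.4 ± 19.0 CPM, SD, n = 3, against 142.9 ± 53.1, SD, n = 4) and Pdgfra (18.9 ± 5.99 against 30.3 ± 3.07 CPM) were above the control in every EPS library. That pattern was found in 7.76% of all genes tested. Ly6a was past an unadjusted limma P of 0.01 and 2-fold, as were 1.41% of all genes in either direction. Dcn and Lum had lower means in the EPS group, and Thy1 never exceeded 3 reads. An adjusted p under 0.05 was reached by 0 of the 5 in limma, 0 in edgeR and 1 in DESeq2. In the adipocyte list 4 of 5 genes, in the osteoblast and chondrocyte list 3 of 6, in the endothelial list 1 of 4 and in the leukocyte list 3 of 4 never exceeded 3 reads. The part of these cell populations in the results below was not tested. In bulk RNA, fewer cells of a type and less RNA per cell cannot be told apart.

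Ptch1 was higher in every EPS library than in any control library. PTCH1 is the ligand receptor and brake of the pathway. The level of Ptch1 (ENSMUSG00000021466.12, chromosome 13 of GRCm38, 63508328 to 63573598) was 9.56, 9.93 and 3.89 CPM for control libraries 1, 3 and 4, and 15.9, 13.3, 18.4 and 18.1 CPM for EPS libraries 1 to 4. These levels came from 164, 165 and 86 reads and from 341, 274, 403 and 340 reads. The lowest EPS library thus lay above the highest control library, and control replicate 4 was the lowest of all. The mean was 7.79 ± 3.39 CPM (SD, n = 3) without stimulation and 16.4 ± 2.34 CPM (SD, n = 4) under EPS, a ratio of 2.11. On the log2(CPM + 1) scale the fold change was 1.07 with a standard error (SE) of 0.32, where the median gene with a mean of at least 1 CPM shifted by 0.10. Without control replicate 4 the log2 fold change of Ptch1 was 0.69, and the ratio of means 1.69.

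A gene was called at an unadjusted P under 0.01 in limma and a change of more than 2-fold. Over all 19144 genes tested, 0.966% were called higher in the EPS group and 0.439% lower. Of the 9 Hedgehog genes, 1, Ptch1, lay past both cutoffs on the higher side and 0 on the lower side. Ptch1 was also the 1 gene of the 9 in which all EPS libraries lay above the control, a pattern of 7.76% of all genes tested, and in 0 of the 9 did they all lie below, a pattern of 2.85%. Since Ptch1 was chosen with this contrast known, nothing is read from these counts. Ptch1 was close to the cutoffs, and did not pass them without control replicate 4, where the fold itself was smaller. Without each EPS replicate in turn the log2 fold change stayed over 2-fold, at 1.01 to 1.16, and the P cutoff was missed. Ptch1 also did not reach 2-fold with quantile normalization (log2 fold change 0.91) or median-of-ratios scaling (0.96). These scalings brought the median gene to 0.0052 and -0.0048 and moved the share of higher calls over all genes from 68.8% to 51.6% and 52.8%. In edgeR and DESeq2 on recovered reads the log2 fold change of Ptch1 was 0.99 and 0.98, just under 2-fold.

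**Figure D1:**
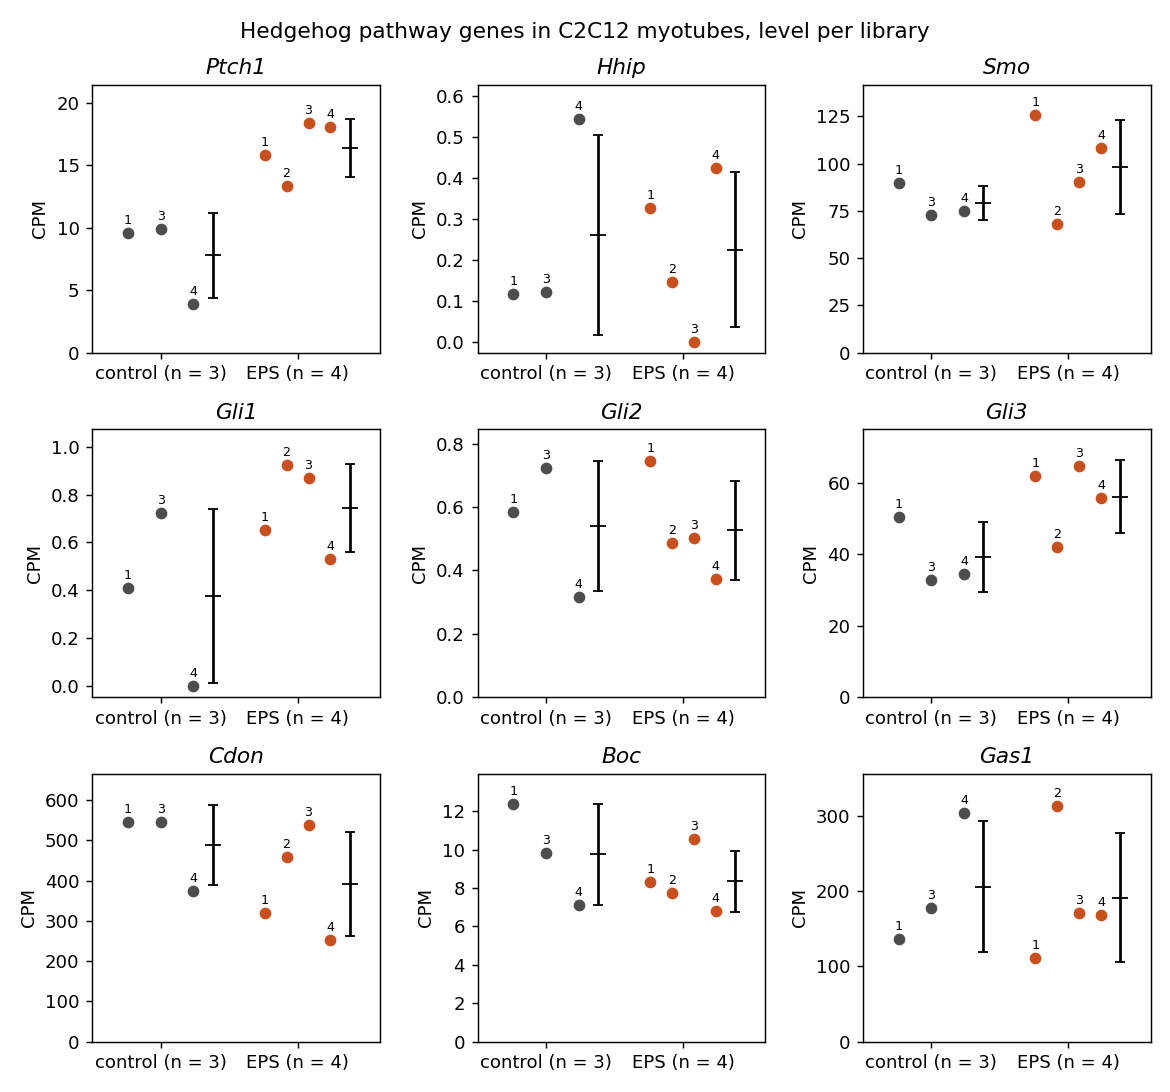
Level of each gene in CPM (vertical axes, linear) in the 3 control libraries (grey) and 4 EPS libraries (orange), with replicate numbers above the points and the mean ± SD beside each group. Ptch1 is the gene in which the groups separate, at 3.89 to 9.93 CPM against 13.3 to 18.4 CPM, and control replicate 4 is the lowest library for Ptch1, Gli1 and Gli2.

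The promoter of Ptch1 is shown because it is the member whose groups separate, and that of Cdon, the member with the highest CPM, for contrast. Both are RefSeq sequences on GRCm38.p6, and both starts lie inside the longer span that GENCODE M21 gives the gene. That span begins upstream of the windows, at 35421128 for Cdon on the plus strand and at 63573598 for Ptch1 on the minus strand. Which start these cells used was not tested, so either window may differ from the promoter in use. Letters in lower case are the 250 bases before the annotated start and capitals the 50 bases after it, written 5′ to 3′ on the strand of the gene.
Ptch1, chr13:63565686-63565985, minus strand: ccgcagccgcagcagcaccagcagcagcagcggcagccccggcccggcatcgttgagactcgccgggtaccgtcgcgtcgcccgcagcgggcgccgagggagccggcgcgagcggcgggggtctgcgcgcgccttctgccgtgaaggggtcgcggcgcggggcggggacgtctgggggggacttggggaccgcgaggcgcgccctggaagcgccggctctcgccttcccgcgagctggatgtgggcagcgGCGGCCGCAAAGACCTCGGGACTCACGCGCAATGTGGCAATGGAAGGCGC
Cdon, chr9:35451826-35452125, plus strand: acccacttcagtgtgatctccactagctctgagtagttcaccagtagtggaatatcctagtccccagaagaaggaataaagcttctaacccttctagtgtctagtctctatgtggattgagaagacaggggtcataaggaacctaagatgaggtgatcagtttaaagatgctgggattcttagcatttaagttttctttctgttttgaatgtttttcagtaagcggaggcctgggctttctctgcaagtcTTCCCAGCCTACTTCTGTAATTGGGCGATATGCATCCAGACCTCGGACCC
The Ptch1 window held 76.3% G and C with 47 CG dinucleotides, and the Cdon window 44.7% with 3, against medians of 52.7% and 7 over 32851 promoters of this length. The GLI consensus GACCACCCA was searched as exact letters on both strands. It was in 0 of the 7 promoters found for the 9 genes (Ptch1, Smo, Gli2, Gli3, Hhip, Cdon and Gas1), and in 83 of all 32851, or 0.253%. This says only that these letters are not in these windows. The windows of Smo, Gli2, Gli3, Hhip and Gas1 held 62.3% to 73.7% G and C.

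HHIP is a decoy that binds Hedgehog ligands at the cell surface. Hhip (ENSMUSG00000064325.4, chromosome 8, 79965851 to 80058006) was near the limit of detection, with 2, 2 and 12 reads for control libraries 1, 3 and 4 and 7, 3, 0 and 8 reads for EPS libraries 1 to 4. The 0 reads of EPS replicate 3 allow a level of up to 0.137 CPM. The groups overlapped widely, and the highest library was control replicate 4. The mean level was 0.260 ± 0.245 CPM (SD, n = 3) without stimulation and 0.224 ± 0.189 CPM (SD, n = 4) under EPS. The sign of the difference changed with the libraries used, and no difference was detectable at this depth.

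SMO is the seven-pass membrane protein that passes the signal inward. Smo (ENSMUSG00000001761.7, chromosome 6, 29735503 to 29761365) was at 89.5, 72.9 and 75.1 CPM for control libraries 1, 3 and 4, and at 126, 68.3, 90.5 and 108 CPM for EPS libraries 1 to 4. EPS replicate 2 was the lowest of the 7 libraries and EPS replicate 1 the highest, so the groups overlapped. The log2 fold change was 0.28 (SE 0.21), with means of 79.2 ± 9.05 CPM (SD, n = 3) in unstimulated and 98.3 ± 24.7 CPM (SD, n = 4) in stimulated myotubes. Within each library, the ratio of Smo to Ptch1 CPM was 9.37, 7.34 and 19.3 in the control replicates and 7.93, 5.12, 4.92 and 5.997 in the EPS replicates. The ratio was highest in control replicate 4, and EPS replicate 1 lay above control replicate 3.

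Of the GLI transcription factors, Gli3 was by far the most abundant. It acts largely as a repressor where no ligand is present. Gli3 (ENSMUSG00000021318.15, chromosome 13, 15463235 to 15730026) was at 50.4, 32.7 and 34.4 CPM for control libraries 1, 3 and 4, and at 61.9, 41.9, 64.8 and 55.8 CPM for EPS libraries 1 to 4. All EPS libraries but replicate 2 were above all control libraries. The mean was 39.2 ± 9.78 CPM (SD, n = 3) without stimulation and 56.1 ± 10.2 CPM (SD, n = 4) under EPS, and the log2 fold change of 0.51 (SE 0.21) was smaller than 2-fold. It was between 0.40 and 0.71 in the 15 alternative fits. Gli3 made up 96.3 ± 2.84% (SD, n = 3) of the summed level per kb of exon of Gli1, Gli2 and Gli3 in the control and 96.2 ± 1.21% (SD, n = 4) under EPS.

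GLI1 is an activator whose own transcript is widely used as a readout of the pathway. Gli1 (ENSMUSG00000025407.7, chromosome 10, 127329882 to 127341974) was below 1 CPM in every library, with 7, 12 and 0 reads for control libraries 1, 3 and 4 and 14, 19, 19 and 10 reads for EPS libraries 1 to 4. In CPM these were 0.408, 0.722 and 0 against 0.652, 0.926, 0.868 and 0.531. Control replicate 3 lay above EPS replicates 1 and 4, so the groups overlapped. The log2 fold change was 0.37 (SE 0.18) and became 0.16 without control replicate 4. With a pseudocount of 0.1 it was 1.26 and in edgeR 0.92. The 0 of control replicate 4 was not peculiar to Gli1. Of the 307 genes with 7 to 12 reads in both other control libraries, 95, or 30.9%, had 0 reads in control replicate 4, where 0.326% to 0.651% had 0 in the EPS libraries.

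GLI2 is the main activator in many tissues. Gli2 (ENSMUSG00000048402.14, chromosome 1, 118834132 to 119053619) had 10, 12 and 7 reads for control libraries 1, 3 and 4 and 16, 10, 11 and 7 reads for EPS libraries 1 to 4. Both groups spanned nearly the same range, 0.316 to 0.722 CPM in the control and 0.372 to 0.745 CPM in the EPS group. The log2 fold change was -0.0098 (SE 0.12), and its sign varied between fits.

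The co-receptors Cdon and Gas1 carried most of the signal of the 9 genes, and in each of the co-receptors the groups overlapped. CDON is an immunoglobulin superfamily protein that binds ligand and also signals at myoblast contacts. Cdon (ENSMUSG00000038119.15, chromosome 9, 35421128 to 35507652) was at 546, 547 and 375 CPM for control libraries 1, 3 and 4, and at 319, 459, 538 and 251 CPM for EPS libraries 1 to 4. Its EPS libraries differed by more than its control libraries did, and EPS replicate 3 reached the level of control replicates 1 and 3. The log2 fold change was -0.36 (SE 0.29), with means of 489 ± 99.0 CPM (SD, n = 3) in unstimulated and 392 ± 130.2 CPM (SD, n = 4) in stimulated myotubes, and lay between -0.54 and -0.17 in the alternative fits.

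BOC is the paralog of CDON. Boc (ENSMUSG00000022687.12, chromosome 16, 44485049 to 44558897) was at 12.4, 9.81 and 7.10 CPM for control libraries 1, 3 and 4, and at 8.33, 7.75, 10.6 and 6.80 CPM for EPS libraries 1 to 4. Its log2 fold change was -0.19 (SE 0.26) and ranged from -0.38, without control replicate 4, to -0.015, without control replicate 1. Those are the control libraries with the lowest and the highest Boc, and the groups overlapped.

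GAS1 is a lipid-anchored co-receptor first described in growth-arrested cells. Gas1 (ENSMUSG00000052957.8, chromosome 13, 60174405 to 60177365) was at 137, 177 and 304 CPM for control libraries 1, 3 and 4, and at 112, 313, 172 and 169 CPM for EPS libraries 1 to 4. Each group held 1 library near 300 CPM, control replicate 4 and EPS replicate 2. The log2 fold change was -0.12 (SE 0.37), smaller than the spread within either group, and it changed sign to 0.19 without control replicate 4 and to 0.10 without EPS replicate 1. In the annotation, 19.9% of the exon bases of Gas1 overlap a long noncoding RNA on the opposite strand. The kit marks strand, but the strand setting of the counting is not given in the sources used here, so reads of that RNA cannot be told apart from those of Gas1. For Gli1 the antisense overlaps were 5.31% and 1.24% of exon bases, for Gli3 1.96% and for Hhip 1.93%.

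**Figure D2:**
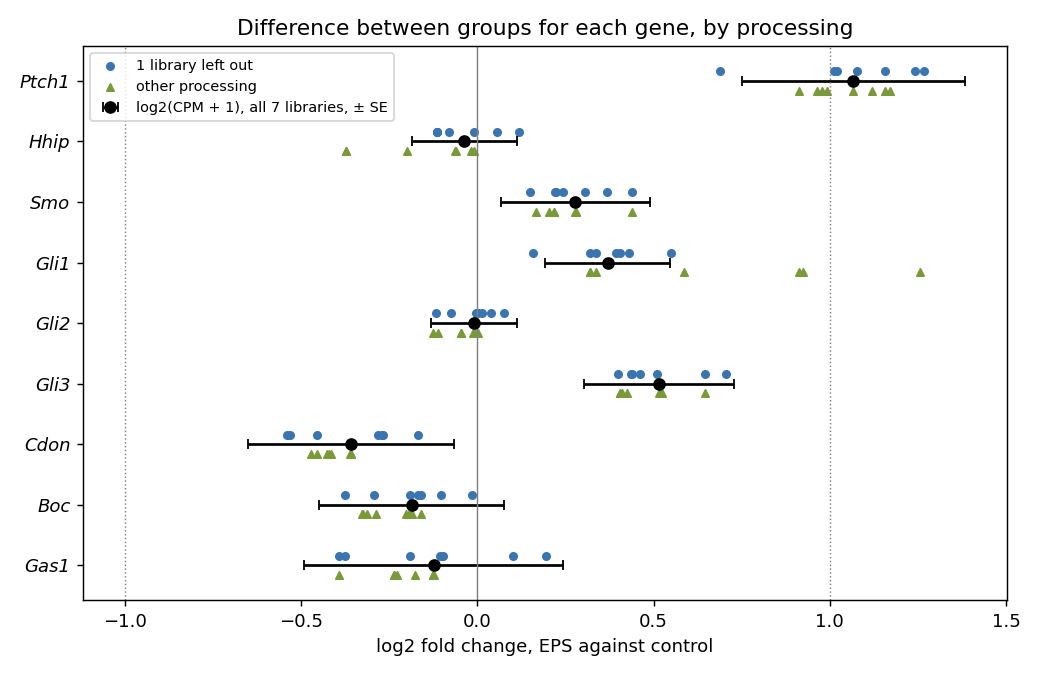
Log2 fold change of each gene, EPS against control (horizontal axis; dotted lines mark 2-fold), with black points and bars for the value ± SE on log2(CPM + 1) over all 7 libraries, blue points for fits that leave out 1 library and green triangles for other processing. Ptch1, Smo, Gli1 and Gli3 stay above 0 and Cdon and Boc below 0 in all of these fits, while Gas1, Gli2 and Hhip cross 0.

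Over the 9 genes, 4 had a positive and 5 a negative log2 fold change, and their median was -0.0098 where the median of all tested genes was 0.041. The receptor Ptch1, the transducer Smo, Gli1 and Gli3 had positive values in every fit run, and Cdon and Boc negative ones. These fits are not all separate checks. A filter at a mean of 1 CPM left the log2 fold changes of the genes it kept as they were. The fit with the replicate number as a block gave the same log2 fold changes as leaving out EPS replicate 2. Gas1, Gli2 and Hhip had no direction that held across fits.

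Levels can be compared between genes only per length, here as CPM per kb of exon, over the joined exons of all transcripts in GENCODE M21, which counts long but unused exons as length. The order from high to low was Gas1, Cdon, Smo, Gli3, Boc, Ptch1, Gli1, Gli2 and Hhip. Gas1 stood at 69.6 ± 29.3 CPM per kb (SD, n = 3) without stimulation and 64.6 ± 29.0 (SD, n = 4) in the EPS group, and Cdon at 63.4 ± 12.8 and 50.8 ± 16.9. The ranges of Gas1 and Cdon over the 7 libraries overlapped, as did those of Gli1, Gli2 and Hhip with their neighbours. Each step between Cdon, Smo, Gli3, Boc, Ptch1 and Gli1 was wider than the spread, since no library of the lower gene reached the lowest library of the higher one. Smo had 14.1 ± 1.61 CPM per kb in the control and Ptch1 0.549 ± 0.239, so the Smo transcript was far above the Ptch1 transcript. The size of that gap depends on the exon length used, and by CPM alone the ratio was 7.34 to 19.3 in the control libraries. Of the level per kb of the co-receptors, Cdon held 59.0%, 53.3% and 31.8% for control libraries 1, 3 and 4 and 51.1%, 35.6%, 53.6% and 35.7% for EPS libraries 1 to 4. Nearly all of the remainder was Gas1, and Boc never exceeded 2.32%.

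**Figure D3:**
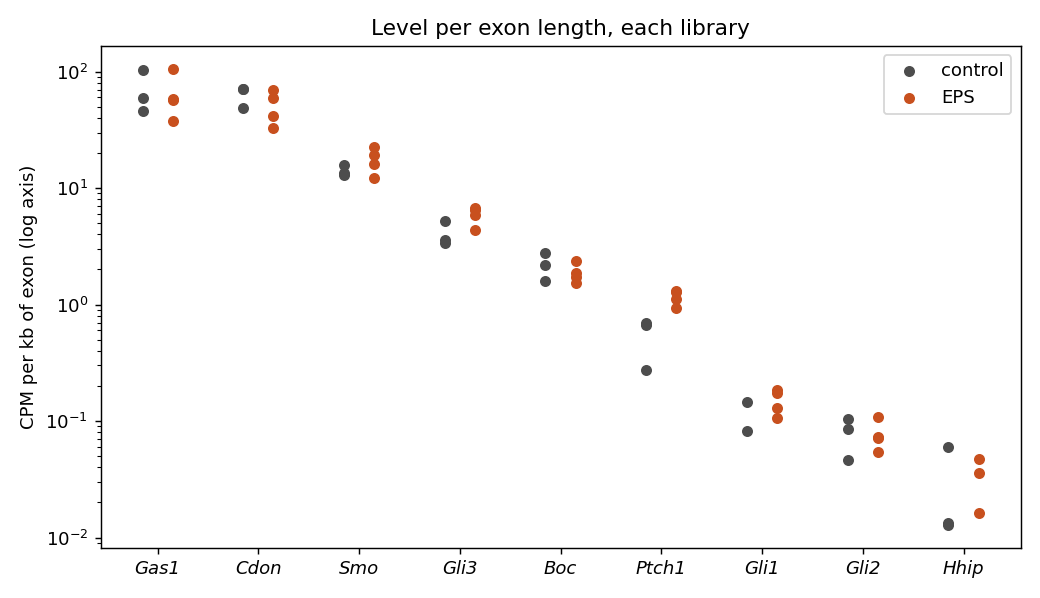
Level of each gene in CPM per kb of exon (vertical log axis) in each control library (grey) and EPS library (orange), ordered by the mean over 7 libraries. Libraries at 0, which are control replicate 4 for Gli1 and EPS replicate 3 for Hhip, cannot be drawn on a log axis. Every library of Gas1 and Cdon lies above every library of the 7 other genes.

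For likeness of pattern, the Pearson r of log2(CPM + 1) over the 7 libraries was computed against 12255 other genes with a mean of at least 1 CPM. With so many genes and 7 libraries, high values are common and are given as a description. The genes most like Ptch1 were Wiz, Dennd5a and Vangl1, with r from 0.987 to 0.988. For Gli3 they were Crat, Zmiz2 and 1500010J02Rik, with r from 0.991 to 0.996, and for Cdon Dcaf10, Zbtb33 and 6330403A02Rik, with r from 0.978 to 0.991. Of the 6 Hedgehog genes with a mean of at least 1 CPM, none was among the 3 nearest of another. Gli1, Gli2 and Hhip, with lower means, were not compared.

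Outside these 9, a list of 75 genes of the pathway was drawn up by role, of which 74 are listed in the data and 70 had reads. These genes can be tested, although earlier results of these data were known when the list was made. In limma, 1 of the 70 was called higher and 0 lower at P under 0.01 and 2-fold, where 1.41% of all genes were called in either direction, so the share is near the background. With Benjamini-Hochberg adjustment over all genes, 0 of the 70 had an adjusted p under 0.05 in limma, against 0.141% of all genes tested, while 9 had an unadjusted P under 0.05, against 11.6%. By the adjusted p, edgeR called 1 of the 70, where it called 1.51% of all genes, and DESeq2 called 2, where it called 3.39% of the 14676 genes to which it gave an adjusted p. All EPS libraries lay above the control in 5 of the 70 and below it in 4, patterns of 7.76% and 2.85% of all genes tested.

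The gene called was Prdm1 (ENSMUSG00000038151.13, chromosome 10, 44437177 to 44528501), which encodes the zinc finger repressor BLIMP1, switched on by Hedgehog signals in slow muscle precursors of zebrafish. Prdm1 was at 0.875, 0.481 and 0.407 CPM for control libraries 1, 3 and 4, and at 2.14, 2.83, 2.51 and 2.18 CPM for EPS libraries 1 to 4. These levels came from 15, 8 and 9 reads and from 46, 58, 55 and 41 reads, so that every EPS library was well above every control library. The mean rose to 2.41 ± 0.321 CPM (SD, n = 4), against 0.588 ± 0.251 CPM (SD, n = 3) without stimulation, a ratio of 4.11. On the log2(CPM + 1) scale, which understates the change of low genes, the fold change was 1.11 (SE 0.17, limma adjusted p 0.0645; two-sided exact permutation p = 0.0286, the lowest value possible with these group sizes). Prdm1 was past both thresholds in each of the 15 alternative fits. Among these, nothing is read from the fit with the filter at a mean of 1 CPM, which Prdm1 met only through its EPS libraries. Prdm1 was also the gene with an adjusted p under 0.05 in edgeR and 1 of the 2 in DESeq2.

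Among the other reported GLI targets, Grem1, which encodes a BMP antagonist, had the next largest log2 fold change on the log2(CPM + 1) scale, although by the ratio of means Foxf1 (2.54) and Hsd11b2 (2.36), both at few reads, exceeded its 1.89. Grem1 was at 178, 120 and 129 CPM for control libraries 1, 3 and 4, and at 180, 294.5, 372 and 232 CPM for EPS libraries 1 to 4, so that EPS replicate 1 barely exceeded control replicate 1. Its log2 fold change was 0.89 (SE 0.26, limma adjusted p 0.231), which is under 2-fold, and it was called without control replicate 1 (1.06) and without EPS replicate 1 (1.06). Of the 15 targets with reads, 7 had positive and 8 negative values, with a median of -0.016. An unadjusted P under 0.05, which 11.6% of all genes had, was reached by 4 of the 15 targets with positive values (Prdm1, Grem1, Foxf1 and Hsd11b2) and by 1 with a negative value, Jag2. Foxf1, a forkhead factor, had a log2 fold change of 0.72 (SE 0.28, limma adjusted p 0.364) at 8 to 71 reads, and its groups overlapped. Hsd11b2, a glucocorticoid-inactivating enzyme, had 3, 1 and 4 reads against 6, 10, 6 and 5, with every EPS library above the control in CPM and a log2 fold change of 0.22 (SE 0.078, limma adjusted p 0.317). Foxf2, the paralog of Foxf1, was also above the control in every EPS library, at 0.61 (SE 0.28, limma adjusted p 0.455). Jag2 and Ccnd1, a Notch ligand and a cyclin of the G1 phase, had lower means in the EPS group. Every EPS library of Jag2 was below the control, at 16.7 to 26.5 CPM against 31.4 to 34.1 CPM, while the groups of Ccnd1 overlapped. The log2 fold change of Jag2 was -0.54 (SE 0.19, limma adjusted p 0.311). Ccnd1 was at -0.71 (SE 0.39, limma adjusted p 0.531) and was called lower in the fit without EPS replicate 4.

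Ligand transcripts were scarce. Sonic hedgehog (Shh) had 0 reads in all 7 libraries, Indian hedgehog (Ihh) 0 to 5 and Desert hedgehog (Dhh) 0 to 5. Hhat, which palmitoylates the ligands, and Disp1, which releases them, were expressed, with log2 fold changes of 0.20 (SE 0.23, limma adjusted p 0.787) and 0.022 (SE 0.21, limma adjusted p 0.968). Both groups thus held transcripts of these ligand-handling genes and few or no reads of the ligands themselves.

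Among the other receptors and membrane regulators, 0 of 11 genes had an unadjusted P under 0.05 in the limma fit used for the calls, against 11.6% of all genes. The largest values were those of Gpr161, a ciliary receptor that represses the pathway, and of Evc, a ciliary partner of SMO, with log2 fold changes of 0.47 (SE 0.34, limma adjusted p 0.648) and 0.46 (SE 0.30, limma adjusted p 0.604). Among the cytosolic regulators of GLI, 0 of 13 had an unadjusted P under 0.05 in the limma fit used for the calls, against the same 11.6%. Sufu, which holds GLI proteins in the cytoplasm, was at 10.9 ± 1.84 CPM (SD, n = 3) without stimulation and 13.0 ± 1.22 CPM (SD, n = 4) under EPS. Prkar1a, which encodes a regulatory subunit of protein kinase A, was at 1108, 1335 and 1215 CPM for control libraries 1, 3 and 4, and at 900, 970, 812 and 861 CPM for EPS libraries 1 to 4. All EPS libraries of Prkar1a were below the control, a pattern of 2.85% of all genes tested. Its log2 fold change was -0.46 (SE 0.23, limma adjusted p 0.496; exact permutation test, p = 0.0286). In that exact test Prdm1, Foxf2, Hsd11b2, Tulp3 and Cdh15 reached the same lowest possible value. Prkar1a was the other gene with an adjusted p under 0.05 in DESeq2.

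The primary cilium houses SMO and the GLI proteins during signaling. Of the 14 cilium genes, 12 had positive values and the median log2 fold change was 0.24, against 0.10 for genes with a mean of at least 1 CPM. With median-of-ratios scaling 10 were positive and the median was 0.14. Of the 14, 0 were called, against 1.41% of all genes, and 3 had an unadjusted P under 0.05, against 11.6%. These were Tulp3, Ttc21b and Dync2h1, which serve ciliary transport, with adjusted p-values of 0.364, 0.426 and 0.427 in limma. Ift88 and Ift172, subunits of the intraflagellar transport complex, had the largest values, 0.57 (SE 0.27, limma adjusted p 0.458) and 0.54 (SE 0.26, limma adjusted p 0.461). Of the 11 partners of CDON and BOC in myogenesis, 0 were called, against 1.41% of all genes. Ntn3, a netrin, had the largest value of these and the 1 unadjusted P under 0.05, with 8, 2 and 0 reads for control libraries 1, 3 and 4 and 15, 9, 17 and 8 for EPS libraries 1 to 4. Its groups overlapped, and its log2 fold change was 0.42 (SE 0.14, limma adjusted p 0.287). Control replicate 4 had 0 reads in many low genes, as given for Gli1, and the part of this in the value of Ntn3 was not tested. The adhesion molecule M-cadherin (Cdh15) was at 485 ± 60.4 CPM (SD, n = 3) without stimulation and 384 ± 42.3 CPM (SD, n = 4) under EPS, with all EPS libraries below the control and a log2 fold change of -0.34 (SE 0.18, limma adjusted p 0.522). Neogenin (Neo1), a receptor that works with CDON, had a log2 fold change of 0.31 (SE 0.17, limma adjusted p 0.525).

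**Figure D4:**
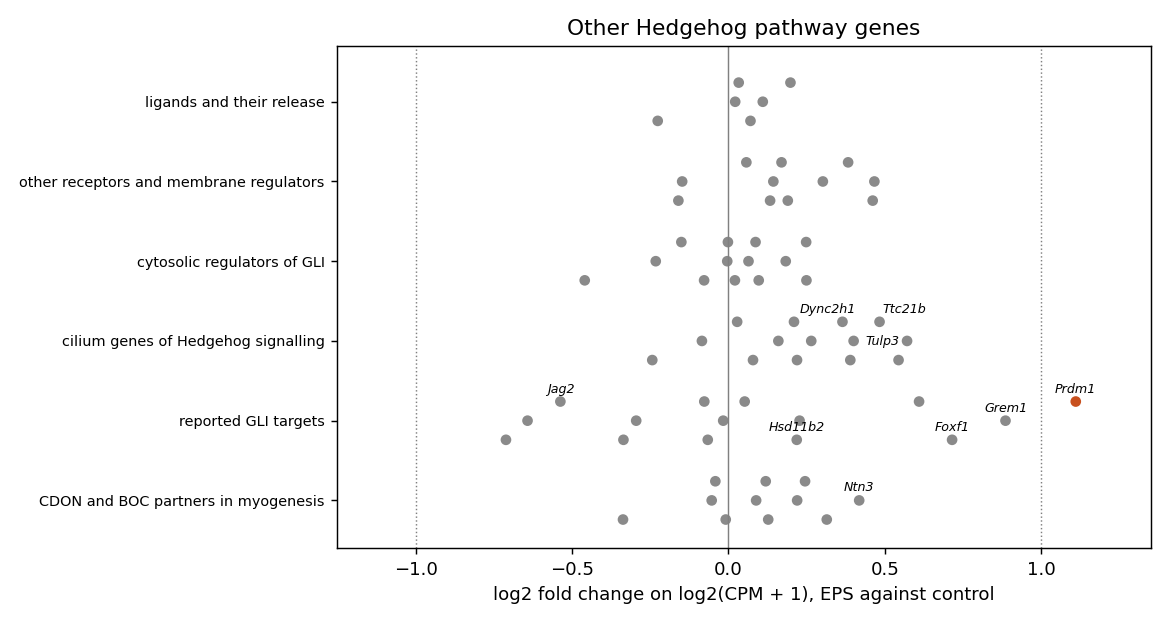
Log2 fold change on log2(CPM + 1), EPS against control (horizontal axis; dotted lines mark 2-fold), of each of the 70 other pathway genes with reads, in rows by role; vertical position within a row has no meaning. Prdm1 (orange, 1.11) is the gene past both thresholds, and genes with an unadjusted P under 0.05 are named.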

How the data were processed

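RNA-seq was done on C2C12 myotubes, 3 control and 4 EPS libraries. The authors selected poly(A) RNA, made directional libraries, sequenced 100-base paired ends and, per their processing notes, used STAR 2.5.4b with GRCm38. The read counter and annotation are not given in the sources used here. The authors deposited CPM. Divided by the value of 1 read, 100% of them came within 0.05 of a whole number, so reads could be recovered.

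Groups were taken from the treatment label and replicate numbers from the titles. CPM were taken as log2(CPM + 1) and the 19144 genes above 0 were tested, EPS against control with no covariate, by limma 3.58.1 in R 4.3.3 (empirical Bayes with a mean-variance trend, Benjamini-Hochberg adjustment). The deposited unit being CPM, edgeR 4.0.16 (quasi-likelihood) and DESeq2 1.42.0 on recovered reads were alternatives only, beside 2 scalings, other pseudocounts (0.1 and 0.5), a filter at a mean of 1 CPM, a P of 0.001, the replicate number as a block and leaving out each library. Single genes outside the 9 were also tested by exact permutation over 35 groupings. The tests were tried on simulated reads. The 9 genes and the lists were chosen with earlier results of these data known. Named are the 9, the called genes of the pathway list, the 2 largest changes per role with a mean of at least 1 CPM, the 3 nearest genes in pattern for Ptch1, Gli3 and Cdon (those for the other genes are not reported here), and, chosen after their values were seen, the pathway genes with an unadjusted P under 0.05, the ligands, Ccnd1, Foxf2 and markers. Older symbols were matched through RefSeq, and 1 list gene, Mosmo, was not matched.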

Additional observations from a re-analysis of the deposited data

Results flagged for a closer look

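For 21 genes, the 9 and 12 others of the pathway, the EPS group of 4 was screened for a library far from the rest. The screen picked out 1, Cdh15, where EPS replicate 4 had 320 CPM and the rest of its group 401 to 410 CPM. Such a screen picks out about 1 group in 20 by chance, and groups of 3 were not screened.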

How the results depend on the processing

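Over all genes, the 269 calls at P under 0.01 and 2-fold became 601 with a pseudocount of 0.1, 629 in edgeR, 585 in DESeq2 and 106 at P under 0.001. The 27 genes with an adjusted p under 0.05 became 106 with a pseudocount of 0.1, 121 with a minimum mean of 1 CPM, 17 with quantile normalization, 290 in edgeR and 497 in DESeq2, and 0 to 27 when 1 library was left out. Of the 9 Hedgehog genes, the 1 past both cutoffs, Ptch1, became 0 with quantile normalization, median-of-ratios scaling, edgeR, DESeq2 and P under 0.001, and 0 to 1 when 1 library was left out. Of the other pathway genes, 1 to 2 were called when 1 library was left out, and those with an adjusted p under 0.05 went from 0 to 1 with a minimum mean of 1 CPM, 1 in edgeR and 2 in DESeq2. The gene gained with the minimum mean was Prdm1. It met that minimum only through its EPS libraries (mean 2.41 CPM, against 0.588 CPM in the control), so nothing is read from that gain. The causes were not tested. With the replicate number as a block, which rests on 3 pairs, 161 genes were called, 0 of the 9 among them, and 0 had an adjusted p under 0.05. The log2 fold change of Ptch1 with this block was 1.16 (SE 0.35), so the fold stayed and the P cutoff was missed. Deviations of same-numbered libraries had a correlation across genes of 0.245, -0.447 and 0.068, and 1 of 3 control libraries was nearest its own number, so the numbers were not treated as pairs. Gli1, Gli2 and Hhip had 0 to 19 reads per library, and small differences in them could not be detected at such counts.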
